A study of Mus musculus with 6 samples.

Results

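The genes described here encode the adhesion molecules that hold epithelial and mesenchymal cells to their neighbours. They are the cadherin genes *Cdh1*, *Cdh2*, *Cdh3* and *Cdh11*, the catenin genes *Ctnnb1*, *Ctnna1* and *Ctnnd1*, the epithelial adhesion gene *Epcam*, and the nectin genes *Nectin1* and *Nectin4*. They were taken by gene symbol from a table of 18152 genes, in which all 10 were present, and all 10 were among the 14131 genes tested. RNA was sequenced from the inner enamel epithelium (IEE) of the mandibular first molar at E18.5, in 3 libraries from *Kdf1 fl/fl* mice (control) and 3 libraries from *K14-Cre;Kdf1 fl/fl* mice (cKO). Both groups carry the floxed *Kdf1* alleles on a C57BL/6J background, and in cKO mice Cre recombinase is driven by the keratin 14 promoter, which is active in basal epithelial cells. The labels call the controls wild type. The IEE was cut from frozen head sections by laser capture microdissection, and how many embryos went into a library is not given in the sources used here. The labels call the libraries biological replicates, so the p-values measure the spread between these 6 libraries.

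At an adherens junction, a classical cadherin binds a cadherin of the same kind on the next cell through its outer part, while its inner part is held by p120-catenin and β-catenin. The latter binds α-catenin, which links the complex to actin. Nectins make the first contacts at such junctions through the actin-binding protein afadin, and EPCAM is a single-pass membrane glycoprotein of epithelia. β-catenin also carries Wnt signals into the nucleus. In the enamel organ, the IEE folds into cusps while its cells stay joined in a sheet, and then differentiates into ameloblasts.

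The libraries held 14713918 to 16675133 counts, and *Kdf1*, the deleted gene, had 44.3 to 52.7 CPM (counts scaled to library size) in controls and a single count, in replicate 2, among the cKO libraries. The tissue was checked against marker lists. The summed level of 10 general epithelial genes, mainly keratins, was 8912 to 12838 TPM (a level scaled by transcript length) in the control and 5224 to 8121 TPM in the cKO libraries, without overlap. The 9 enamel epithelium genes summed to 7017 to 37257 and 1663 to 4051 TPM, also without overlap. *Amelx* was the largest part of this sum in each control library, and the separation rests on it. It was at 4017 to 32209 TPM in control and 9.45 to 699 TPM in cKO libraries. Of the 9 genes, 4 were lower in cKO without overlap, where 16.2% of all genes tested were, and 3 had log2 fold changes above 0. Mesenchymal genes were present in both groups, at 1886 to 9021 TPM in control and 5073 to 6648 TPM in cKO libraries, with overlapping sums. Of these 15 genes, 9 were higher in cKO without overlap, where 14.5% of all genes tested were, while *Col1a1*, *Col1a2* and *Dcn* had log2 fold changes of −0.46, −0.53 and −0.05 and overlapped. Erythroid genes summed to 3321 to 5039 and 3330 to 5608 TPM, and neural and Schwann cell genes to 194 to 378 and 103 to 164 TPM. No gene of these lists was at 0 in all libraries. Their part in the differences below was not tested. In such bulk tissue, fewer cells of a type and less RNA per cell cannot be told apart.

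Promoter sequence from RefSeq was read for 4 of the 10 members, *Nectin4*, *Ctnnd1*, *Ctnnb1* and *Epcam*, and not for *Cdh1*. It is shown for 3 of them. The groups of *Nectin4* and of *Ctnnb1*, the most abundant member, did not overlap, and those of *Epcam* did. The windows are the 250 bases before the annotated start on the plus strand of GRCm38.p6, at chr1:171369923-171370172 for *Nectin4*, chr17:87635729-87635978 for *Epcam* and chr9:120933150-120933399 for *Ctnnb1*. Capitals mark the E-box letters CANNTG, which read the same way on both strands and are bound by many transcription factors.
Nectin4: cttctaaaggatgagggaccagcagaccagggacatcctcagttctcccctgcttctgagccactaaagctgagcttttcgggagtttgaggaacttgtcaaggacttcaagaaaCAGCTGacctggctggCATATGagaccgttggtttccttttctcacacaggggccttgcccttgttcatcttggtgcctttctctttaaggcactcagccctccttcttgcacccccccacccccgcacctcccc
Epcam: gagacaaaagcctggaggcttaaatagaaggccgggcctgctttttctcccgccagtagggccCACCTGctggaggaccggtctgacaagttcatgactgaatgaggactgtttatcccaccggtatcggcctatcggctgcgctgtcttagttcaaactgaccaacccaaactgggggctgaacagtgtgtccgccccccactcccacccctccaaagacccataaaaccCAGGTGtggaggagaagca
Ctnnb1: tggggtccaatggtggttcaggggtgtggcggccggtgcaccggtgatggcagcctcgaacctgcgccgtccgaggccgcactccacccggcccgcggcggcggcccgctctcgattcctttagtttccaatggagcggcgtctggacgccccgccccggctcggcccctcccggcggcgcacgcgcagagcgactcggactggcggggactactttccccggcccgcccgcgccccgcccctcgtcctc
The *Nectin4* window held 2 E-boxes, CAGCTG and CATATG. The *Epcam* window also held 2, and both were of the form CACCTG or its reverse complement CAGGTG, the letters bound by Snail and Zeb repressors. The *Ctnnb1* window held none. Of the 32841 windows of this length, 66.2% held CANNTG and 17.2% held CACCTG on either strand, and every CACCTG match is also a CANNTG match. The grainyhead-type letters AACNNGTT were in none of the 3 windows and in 3.64% of all windows. The *Ctnnb1* window was 74.8% G and C with 35 CG dinucleotides, against 56.4% with 8 in *Epcam* and 54.4% with 3 in *Nectin4*. These matches describe letters and not binding.

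In the control IEE, the catenin and cadherin genes spanned a wide range of levels. *Ctnnb1* was the highest with 1287 ± 77.0 TPM (SD, n = 3), above 99.4% of all genes. *Cdh1* with 344 ± 55.8 TPM and *Epcam* with 306 ± 83.1 TPM followed, and their ranges overlapped. *Ctnna1*, *Nectin4* and *Cdh3* came next with 212 ± 1.87, 192 ± 37.4 and 172 ± 43.0 TPM, again with overlapping ranges between neighbours. *Ctnnd1* was at 119 ± 3.40 TPM, *Cdh11* at 65.0 ± 43.1, *Nectin1* at 62.2 ± 10.3 and *Cdh2* at 29.2 ± 15.4 TPM, of which *Cdh11* and *Nectin1* overlapped. In the cKO IEE the order was different. *Ctnnb1* and *Epcam* were still far apart, at 1167 ± 32.5 and 306 ± 26.7 TPM. *Cdh3*, *Ctnna1*, *Cdh11*, *Cdh1* and *Ctnnd1* then followed with means from 213 down to 112 TPM, each overlapping the next, so that *Cdh1* stood sixth where it had been second. *Nectin4* was at 101 ± 7.37 TPM, clear of *Nectin1* with 40.7 ± 8.08 TPM, and *Nectin1* overlapped *Cdh2*, which had a mean of 39.8 TPM.

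The members also differed in how far replicates lay apart. The coefficient of variation of TPM was 0.881% for *Ctnna1* and 66.4% for *Cdh11* in the control group, and 2.79% for *Ctnnb1* and 55.9% for *Cdh11* in the cKO group. The cadherin genes *Cdh2* and *Cdh11* varied by more than 40% in both groups.

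**Figure D1:**
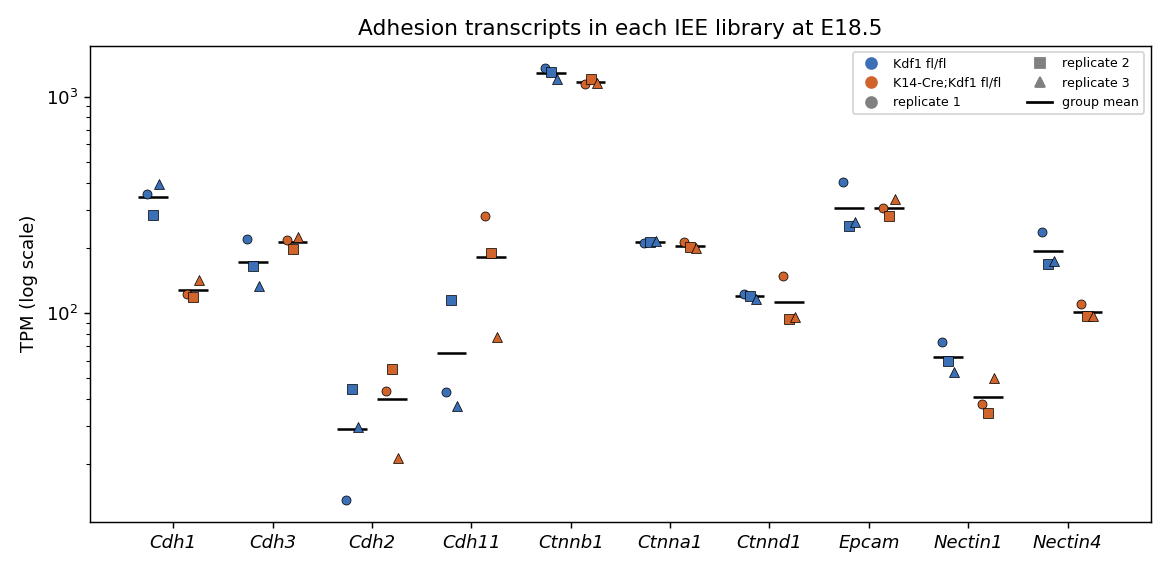
Level of each adhesion gene in TPM on a log axis, by library (symbols mark replicates), with group means as bars. *Cdh1*, *Nectin1*, *Nectin4* and, by a small margin, *Ctnnb1* were lower in all 3 cKO libraries. *Epcam* overlapped between groups, and *Cdh11* spread from 77.0 to 280.0 TPM within the cKO group.

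Control and cKO counts were set against each other in edgeR (quasi-likelihood). The criterion was that of the study, a log2 fold change of at least 1 in either direction and a Benjamini-Hochberg adjusted p of at most 0.05 over all genes tested. *Cdh1* was the 1 member that passed it, where 0.432% of all genes tested did (0.29% lower and 0.142% higher). In DESeq2 *Cdh1* and *Cdh11* passed, where 6.94% of all genes did (1.88% lower and 5.05% higher). In the edgeR fit that blocks on replicate number *Cdh1* passed, where 6.09% did (1.92% lower and 4.16% higher). The labels do not state that same-numbered libraries are pairs, and this pairing was read from these same data. An unadjusted p of at most 0.05 was reached by 3 members that were lower and 1 that was higher, and by 24.5% of all genes. In 5 members the CPM ranges of control and cKO were apart, and all 5 had lower values in cKO. Among all genes 30.7% did not overlap, 16.2% lower and 14.5% higher. The median log2 fold change of the members was −0.16, and 3 of 10 lay above 0, as did 49.5% of all genes tested.

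*Cdh1* encodes E-cadherin, the main cadherin of epithelia. It was at 353, 284 and 394 TPM in the 3 control libraries and at 122, 119 and 141 TPM in the 3 cKO libraries. The lowest control library lay far above the highest cKO library. On the CPM scale the means were 843 ± 189 and 299 ± 45.0 (SD, n = 3 per group), which gave a log2 difference of −1.50 (SE 0.21, 95% interval −1.98 to −1.01) and a 2.82-fold lower level. Adjusted p-values were 0.0498 (edgeR), 2.71e-09 (DESeq2) and 0.00695 (edgeR, replicate block). The edgeR value lies close to the threshold, and *Cdh1* stayed past the criterion in 1 of the 6 fits that left out a library, the one without cKO 3. In the other 5 fits the log2 fold change lay between −1.66 and −1.33 with edgeR adjusted p-values from 0.0582 to 0.210. The criterion was met by 3.23% of all genes tested without cKO 3 and by at most 0.111% in those 5 fits.

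*Cdh3* encodes P-cadherin, a classical cadherin of basal and placode epithelium, and it is the nearest protein-coding gene on 1 side of *Cdh1* on mouse chromosome 8 (RefSeq, GRCm38.p6). It was at 218, 164 and 133 TPM in control libraries and at 218, 198 and 224 TPM in cKO libraries. The groups overlapped, since replicate 1 of the control group was as high as the cKO libraries. The log2 fold change was 0.26 (SE 0.18, 95% interval −0.17 to 0.70), with an adjusted p of 0.421 in edgeR. A fall as large as that of *Cdh1* lies outside this interval.

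*Cdh2* encodes N-cadherin, which is made by mesenchymal, neural and some epithelial cells including differentiating ameloblasts. Its TPM values were 13.6, 44.3 and 29.6 in control and 43.4, 54.8 and 21.3 in cKO libraries, and the groups overlapped widely. A log2 difference of 0.39 resulted (SE 0.45, 95% interval −0.68 to 1.45), so that neither a fall nor a rise was outside the precision of these libraries (edgeR, adjusted p = 0.632).

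*Cdh11* encodes a type II cadherin typical of mesenchyme and osteoblasts. It was at 43.1, 115 and 37.2 TPM in control libraries and at 280.0, 189 and 77.0 TPM in cKO libraries. Replicate 2 of the control group exceeded replicate 3 of the cKO group. This gave a difference of 1.43 on the log2 scale (SE 0.53, 95% interval 0.18 to 2.67). Adjusted p-values were 0.160 (edgeR), 0.0677 (edgeR, replicate block) and 0.0280 (DESeq2, where *Cdh11* passed the criterion). Leaving out control 2 gave 2.04 and leaving out cKO 1 gave 1.05, neither past the criterion (edgeR, adjusted p = 0.104 and 0.335). The marker list of endothelium, 8 genes, had summed levels of 184, 203 and 160 TPM in control and 570, 304 and 199.9 TPM in cKO libraries, and ranked the 6 libraries in the same order as *Cdh11*. All 8 of its genes had a log2 fold change above 0. The immune list summed to 65.0, 137 and 82.8 TPM in control and 418, 187 and 121 TPM in cKO libraries, with 7 of 8 genes above 0. The 15 mesenchymal genes summed to 1886, 9021 and 4802 TPM in control and 6648, 6205 and 5073 TPM in cKO libraries. The order of these sums was unlike that of *Cdh11*, and 12 of the genes had log2 fold changes above 0. *Col1a1*, the largest part of this sum in each library, was highest in control 2 with 4161 TPM and ranked the libraries otherwise than *Cdh11*. *Col3a1*, of the same list, ranked them as *Cdh11* did. It was at 91.9, 247 and 61.0 TPM in control and 1185, 673 and 233 TPM in cKO libraries. The bone and odontoblast list, 6 genes, summed to 467, 2034 and 2381 TPM in control libraries. In cKO libraries it summed to 548, 399 and 945 TPM, and 1 of its 6 genes had a log2 fold change above 0. Among all genes tested, 49.5% were above 0. The part of these lists in the *Cdh11* values was not tested.

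**Figure D2:**
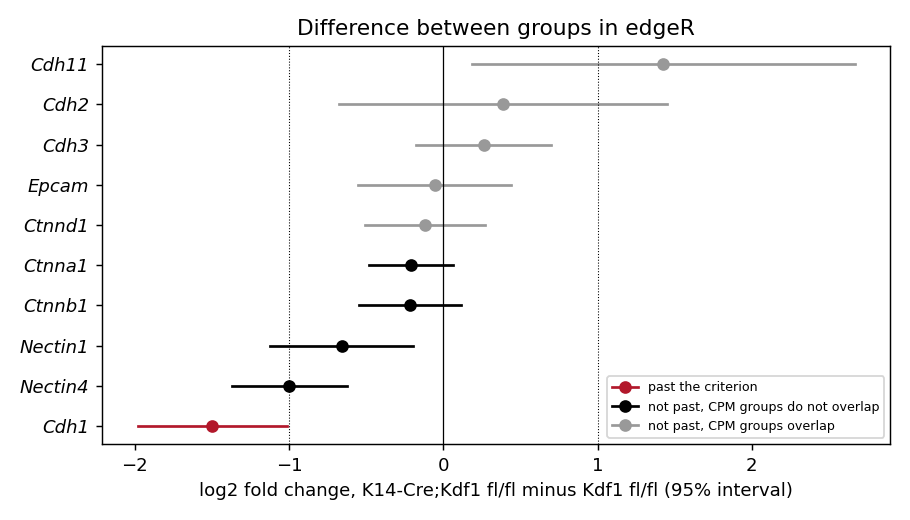
Log2 fold change of each member (cKO minus control) from edgeR with its 95% interval, ordered by size; dotted lines mark a log2 fold change of 1 in either direction. *Cdh1* at −1.50 is past the criterion, *Nectin4* at −0.997 lies at the fold limit, and the intervals of the catenins, *Epcam*, *Cdh2* and *Cdh3* include 0.

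The composition of the cadherin transcripts was compared within each library, as a description over these 4 members. *Cdh1* made up 56.2%, 46.8% and 66.3% of the summed TPM of the 4 cadherins in control libraries and 18.4%, 21.2% and 30.5% in cKO libraries. *Cdh1* was the largest component in each control library and in none of the cKO libraries. There the largest was *Cdh11* in replicate 1 with 42.2%, and *Cdh3* in replicates 2 and 3 with 35.4% and 48.3%. The share of *Cdh11* averaged 10.7% and 30.8%, but replicate 2 of the control group, with 18.9%, was above replicate 3 of the cKO group, with 16.6%. The summed TPM of the 4 genes was 628, 607 and 595 in control and 664, 561 and 464 in cKO libraries, with overlapping groups.

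**Figure D3:**
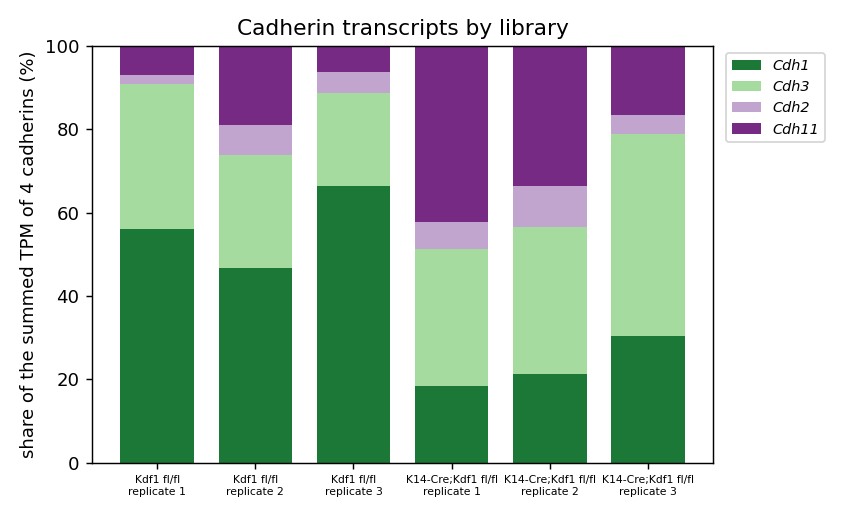
Share of *Cdh1*, *Cdh3*, *Cdh2* and *Cdh11* in their summed TPM, in percent, for each of the 6 libraries. *Cdh1* takes 46.8% or more in each control library and 30.5% or less in each cKO library.

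None of the 3 catenin members passed the test. *Ctnnb1*, which encodes β-catenin, was at 1361, 1294 and 1207 TPM in control and 1145, 1205 and 1152 TPM in cKO libraries. Each cKO library was below each control library, by a small margin. On the log2 scale the difference was −0.22 (SE 0.14, 95% interval −0.55 to 0.11), with an adjusted p of 0.380 in edgeR. *Ctnna1*, which encodes the epithelial α-catenin, was at 210, 213 and 214 TPM in control and 211, 202 and 199 TPM in cKO libraries. The groups overlapped in TPM, although they did not in CPM, where the log2 fold change was −0.21 (SE 0.12, 95% interval −0.48 to 0.07, edgeR adjusted p = 0.309). *Ctnnd1*, which encodes p120-catenin and keeps cadherins at the membrane, was at 122, 120 and 115 TPM in control and 147, 93.9 and 96.1 TPM in cKO libraries. Replicate 1 of the cKO group was the highest of all 6 libraries and cKO 2 and 3 were the lowest. Its log2 difference was −0.12 (SE 0.17, 95% interval −0.51 to 0.27, edgeR adjusted p = 0.688). For each of these 3 genes the interval lay within a log2 difference of 0.55 below and 0.27 above 0.

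*Epcam* was at 402, 252 and 264 TPM in control libraries and at 304, 281 and 334 TPM in cKO libraries. The cKO values lay inside the range of the control values, and the means of 306 ± 83.1 and 306 ± 26.7 TPM (SD, n = 3 per group) were nearly equal. The log2 fold change was −0.05 (SE 0.21, 95% interval −0.55 to 0.44), with an adjusted p of 0.897 in edgeR. Its sign changed with the scaling, to 0.0059 with library size alone.

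The nectin members, *Nectin4* and *Nectin1*, had lower values in cKO mice. *Nectin4*, whose product acts in skin and hair adhesion, was at 236, 169 and 173 TPM in control and 109, 96.5 and 96.5 TPM in cKO libraries. All cKO libraries were below all control libraries and lay close together. The CPM means were 362 ± 71.3 and 181 ± 4.41 (SD, n = 3 per group), which gave a log2 difference of −0.997 (SE 0.16, 95% interval −1.37 to −0.62). Adjusted p-values were 0.0526 (edgeR), 2.72e-06 (DESeq2) and 0.0142 (edgeR, replicate block), while the fold change was just under the limit in all 3. *Nectin4* passed the criterion without the filter on low counts (edgeR, adjusted p = 0.0390). *Nectin1*, which partners with other nectins at tooth and epithelial junctions, was at 73.4, 59.9 and 53.2 TPM in control and 37.9, 34.4 and 49.8 TPM in cKO libraries. The groups did not overlap, but replicate 3 of each group came close. The log2 fold change was −0.66 (SE 0.20, 95% interval −1.12 to −0.19), with adjusted p-values of 0.114 (edgeR), 0.0690 (edgeR, replicate block) and 0.0326 (DESeq2).

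Ratios within a library do not depend on how libraries are scaled. Of the 12 compared, 8 were between members and 4 set a member against the epithelial markers. *Cdh3* was at 0.619, 0.578 and 0.338 of *Cdh1* in control libraries and at 1.79, 1.67 and 1.59 times *Cdh1* in cKO libraries. The order of these cadherins was thus turned in every library, with a 3.40-fold difference in the ratio. *Epcam* was at 1.14, 0.889 and 0.669 times *Cdh1* in control and at 2.49, 2.37 and 2.37 times *Cdh1* in cKO libraries. The catenin to *Cdh1* ratios were higher in each cKO library, by 2.43-fold for *Ctnnb1*, 2.58-fold for *Ctnna1* and 2.48-fold for *Ctnnd1*. The TPM of *Ctnnb1* was on average 3.83 times that of *Cdh1* in controls and 9.23 times in cKO. *Cdh11* per *Cdh1* transcript was at 0.207 ± 0.171 and 1.48 ± 0.879 without overlap, while the ratio of *Cdh2* to *Cdh1* overlapped. The ratio of *Nectin4* to *Nectin1* overlapped too, at 3.09 ± 0.239 and 2.54 ± 0.525. The groups did not overlap in 9 of the 12 ratios, 6 of those between members and 3 of those to the markers. Each had a two-sided exact permutation p of 0.1, the smallest that 3 against 3 libraries allow, and a Benjamini-Hochberg adjusted value of 0.133. All 6 between members have *Cdh1* as the denominator, so its lower level in cKO enters each of them and they are not separate results. The 3 to the markers share a denominator too.

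Against the summed TPM of the 10 epithelial markers, the members parted. *Cdh1* was at 0.0303, 0.0319 and 0.0307 of this sum in control and at 0.0203, 0.0227 and 0.0174 in cKO libraries. It was thus 1.55-fold lower relative to this sum. *Cdh3* was 2.20-fold higher and *Epcam* 1.77-fold higher relative to the same sum, each without overlap. *Nectin4* showed no separation, with 0.0175 ± 0.00359 and 0.0162 ± 0.00372 (SD, n = 3 per group, two-sided exact permutation p = 0.5). *Krt5*, *Krt14* and *Krt17* hold most of this sum and were themselves lower in each cKO library, with log2 fold changes of −0.83, −1.50 and −0.83 (edgeR, adjusted p = 0.118, 0.0842 and 0.114).

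**Figure D4:**
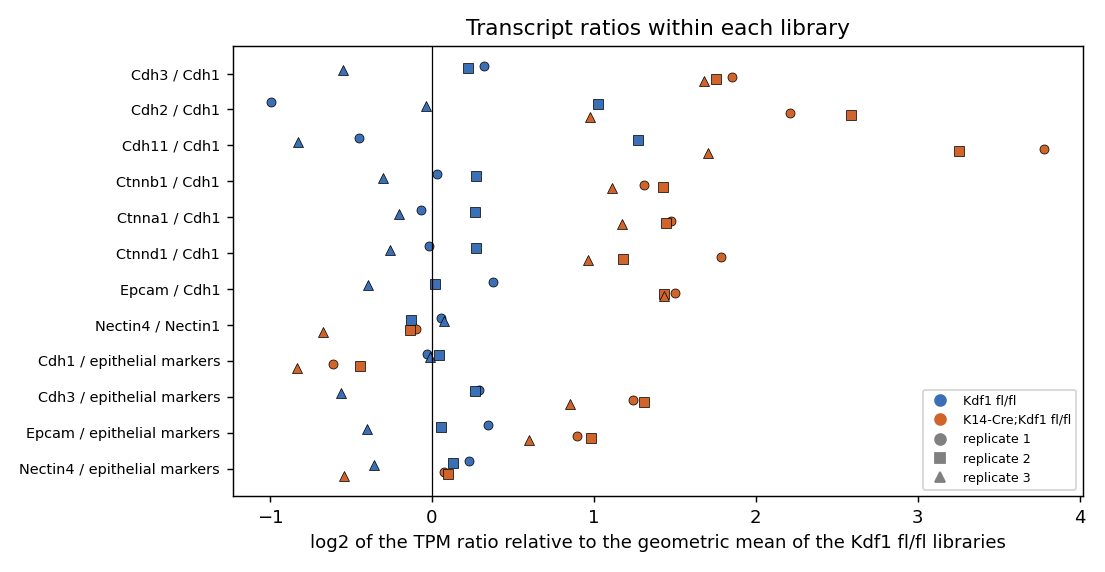
Log2 of 12 TPM ratios in each library, relative to the geometric mean of the control libraries. The ratios of *Cdh3*, *Epcam* and the catenins to *Cdh1* are higher in all 3 cKO libraries, and the ratios of *Nectin4* to *Nectin1* and to the epithelial markers overlap.

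Across the 6 libraries, the genes closest in profile to *Cdh1* among 11597 genes with at least 5 CPM were *Car13*, *Fam83g*, *Mia3*, *D630045J12Rik* and *Mccc1*, with Pearson r from 0.994 to 0.995 on log2 CPM. Among the members, *Nectin4* was the closest to *Cdh1* with r = 0.948, at place 345 of 11597. For *Epcam* the closest genes were *Smco4* (r = 0.986), *Tuft1*, which encodes the enamel-associated protein tuftelin (r = 0.977), *Tor2a*, *Nme4* and *Atxn1*, and among members *Cdh3* (r = 0.697). For *Cdh11* they were *Tap2*, *Rgl1*, the collagen VI gene *Col6a3*, *Rab13* and *Olfml3*, with r from 0.994 to 0.999. These coefficients share the same 6 libraries in 2 groups, so a common group difference enters each of them.

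Genes that work with the members were listed in 5 groups of 71 genes in all, of which 61 were tested. In edgeR 1 passed the criterion, lower in cKO mice, where 0.432% of all genes tested passed. With the replicate block 6 passed and in DESeq2 6 passed, where 6.09% and 6.94% of all genes did. The median log2 fold change of the 61 genes was 0.02.

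Among 27 tested catenins and cytoplasmic partners, 1 fell. Without overlap 9 were lower and 1 was higher, where 16.2% and 14.5% of all genes tested were, and the median log2 difference was −0.18. The gene that fell was *Ctnnd2*, which encodes δ-catenin, a relative of p120-catenin known mainly from neurons. It was at 12.7, 9.16 and 9.99 TPM in control and 2.83, 4.36 and 3.08 TPM in cKO libraries, lower by a log2 difference of −1.68 (SE 0.25, adjusted p = 0.0498, edgeR). *Ctnna2*, the gene of the α-catenin known from neurons, had 87.2, 104 and 334 TPM in control and 11.7, 11.7 and 26.0 TPM in cKO libraries. It was below *Ctnna1* in controls 1 and 2 and above it in control 3, and its groups lay far apart. It differed by −3.49 on the log2 scale (SE 0.68), with adjusted p-values of 0.0637 (edgeR), 0.00256 (edgeR, replicate block) and 0.000291 (DESeq2), and passed the criterion in the block fit and in DESeq2. *Jup*, which encodes plakoglobin, a catenin shared by adherens junctions and desmosomes, was at 226, 165 and 185 TPM in control and 126, 96.3 and 134 TPM in cKO libraries, with a log2 fold change of −0.78 (SE 0.19, edgeR adjusted p = 0.0808). The receptor phosphatase gene *Ptprm* was higher in each cKO library, with a log2 fold change of 0.93 (SE 0.21, edgeR adjusted p = 0.0771).

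Of 7 tested partners of EPCAM none passed in edgeR, where 2 reached 0.05 unadjusted (24.5% of all genes tested did). In DESeq2 1 passed and with the replicate block 1 passed, where 6.94% and 6.09% of all genes did. All 7 had log2 fold changes below 0, with a median of −0.35, while 49.5% of all genes tested were above 0. *St14*, which encodes the membrane protease matriptase that cleaves EPCAM, was at 86.4, 86.5 and 117 TPM in control and 46.6, 47.5 and 56.0 TPM in cKO libraries. It differed by −1.03 on the log2 scale (SE 0.19), with adjusted p-values of 0.0637 (edgeR), 0.00944 (edgeR, replicate block) and 0.000227 (DESeq2), and passed the criterion in the block fit and in DESeq2.

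Of the 7 nectin and nectin-like genes none passed in edgeR, where 5 reached 0.05 unadjusted (24.5% of all genes tested did). In DESeq2 1 passed and with the block 1 passed, where 6.94% and 6.09% of all genes did. The median log2 fold change was 0.44, and 5 of 7 were above 0, where 49.5% of all genes tested were. *Cadm3*, named because it is the 1 gene of this list that passed in DESeq2 and in the block fit, encodes a nectin-like protein known from neurons. It was at 2.48, 4.82 and 1.4 TPM in control and 12.46, 12.03 and 3.06 TPM in cKO libraries, with overlapping groups. It differed by 1.66 on the log2 scale (SE 0.54), with adjusted p-values of 0.131 (edgeR), 0.0167 (edgeR, replicate block) and 0.0166 (DESeq2). *Nectin3*, the binding partner of nectin-1, was at 135, 94.8 and 103 TPM in control and 68.4, 59.0 and 81.0 TPM in cKO libraries, with a log2 fold change of −0.73 (SE 0.19, edgeR adjusted p = 0.0914, 0.0344 with the block). *Cadm1*, which encodes a nectin-like protein, differed by −0.25 (SE 0.10, edgeR adjusted p = 0.183). Without overlap, 2 genes of this list were lower, *Nectin3* and *Cadm1*, and 1 with a mean below 5 CPM was higher. Among all genes tested 16.2% were lower and 14.5% higher without overlap. Of 10 tested other cadherins none passed in edgeR, where 4 reached 0.05 unadjusted (24.5% of all genes tested did). In DESeq2 2 passed and with the block 2 passed, where 6.94% and 6.09% of all genes did. Their median log2 fold change was 1.16, and 9 of 10 were above 0, where 49.5% of all genes tested were. *Cdh13*, which encodes the lipid-anchored T-cadherin, was at 8.77, 11.1 and 7.31 TPM in control and 31.3, 21.3 and 14.5 TPM in cKO libraries, a log2 difference of 1.20 (SE 0.26) with adjusted p-values of 0.0692 (edgeR), 0.0206 (edgeR, replicate block) and 0.000912 (DESeq2). Of 10 proteases that shed or cut cadherins, none passed in edgeR, DESeq2 or with the block, none reached 0.05 unadjusted in edgeR, and the log2 fold changes lay between −0.16 and 0.41.

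**Figure D5:**
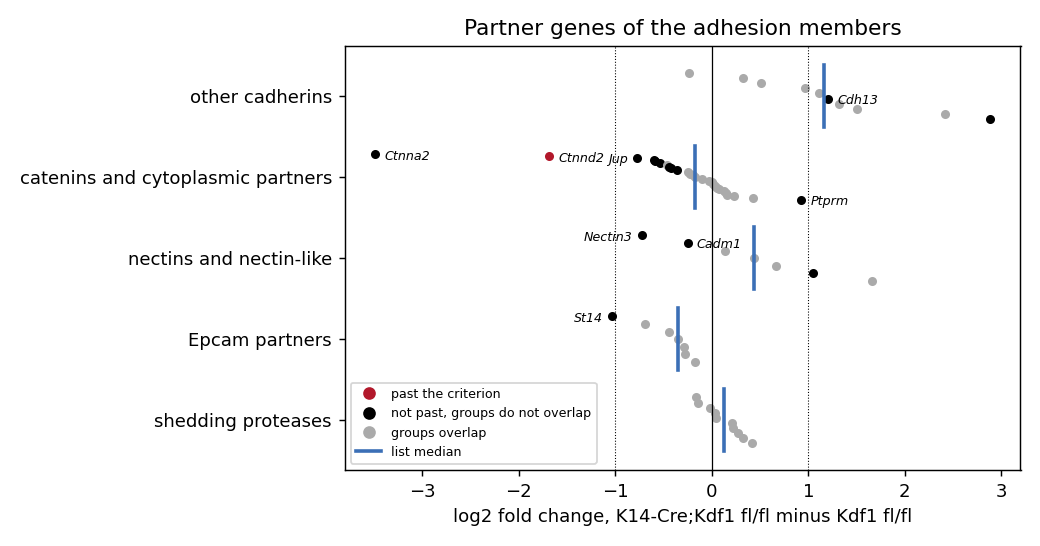
Log2 fold change (cKO minus control, edgeR) of the 61 tested partner genes in their 5 lists, with list medians as bars and dotted lines at a log2 fold change of 1 in either direction. *Ctnnd2* is past the criterion, *Ctnna2* has the lowest value at −3.49, and other cadherins lie mostly above 0.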

How the data were processed

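RNA from laser-captured IEE was sequenced by the authors in 6 libraries, and 1 table of 18152 genes was deposited. Per the labels, TruSeq libraries were made from total RNA, and the submitters' processing notes name BWA 0.7.12, Picard 2.6.0 and StringTie. The counting program, genome build and strand setting are not given in the sources used here. The deposited estimated counts are the authors' reads per gene, of which 10.9% to 11.5% per library are not whole, and they were rounded. The deposited TPM values are the authors' levels scaled by length to a fixed total per library, and were used for levels between genes. The deposited FPKM values, scaled by length and depth by the authors, were not used. Columns of the authors' group means were not used.

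With edgeR 4.0.16 (R 4.3.3), low counts were removed by filterByExpr, libraries scaled by TMM and groups compared by robust quasi-likelihood fits with two-sided F-tests, adjusted by Benjamini-Hochberg over 14131 genes. Standard errors were taken as the log2 fold change over the root of F, and intervals from the t distribution with edgeR's degrees of freedom. Alternatives were DESeq2 1.42.0, limma 3.58.1 on TPM or with voom, other scalings and filters, the replicate block and the omission of each library. The procedure was tested on simulated counts. Counts of 0 allow up to 3 counts, or 0.182 to 0.198 CPM, for counting error only. Replicates differed by 36.0 to 76.7 times the sampling variance. Same-numbered control and cKO libraries deviated together (r = 0.135, 0.324 and 0.499 over genes), each above 0.1, so the numbers were read as pairs from the data. Differently numbered libraries gave r from −0.41 to 0.144, the highest of which (control 2 with cKO 1) was above the first pair's. The members and lists were chosen with earlier results of these data known. Genes named are *Kdf1*, the 10 members, up to 4 genes per partner list with the largest fold change among those with a mean of 5 CPM or more in the group where they are higher and no overlap, and the 5 genes most like *Cdh1*, *Epcam* and *Cdh11*. *Krt5*, *Krt14*, *Krt17*, *Amelx*, *Col1a1*, *Col1a2*, *Col3a1* and *Dcn* are markers. Of these, *Amelx* and *Col3a1* were named after their values were seen. A partner gene is not reported here and was left out of its list.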

Additional observations from a re-analysis of the deposited data

How the results depend on the processing

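In the 10 fits with another test, scaling, filter or the replicate block, each member except *Epcam* kept its direction. The member count of 1 became 2 in DESeq2 (*Cdh1*, *Cdh11*), without a filter on low counts (*Cdh1*, *Nectin4*) and with unadjusted p-values beside the fold limit, and 0 with DESeq2's size factors in edgeR, library size alone, at least 10 counts in every library and limma-voom. In these last fits *Cdh1* had adjusted p-values from 0.0515 to 0.0613 (edgeR or limma, Benjamini-Hochberg). The partner count of 1 became 6 in DESeq2, 6 with the replicate block, 8 with unadjusted p-values beside the fold limit, 0 with limma on log2(TPM + 1) or log2(TPM + 0.1), and 0 in the same 4 fits in which the member count was 0. Over all genes, the criterion was met by 61 genes in edgeR, 980 in DESeq2, 860 with the block, 103 without the filter, and between 6 and 9 in those 4 fits. With the replicate block *Nectin4* reached an adjusted p of 0.0142 without passing the fold limit, and the block changed no member's call.

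Leaving out 1 library gave 0 to 1 members and 0 to 5 partner genes past the criterion, and the log2 fold change of *Kdf1* ran from −12.61 to −10.27. Over all genes tested, 465 (3.23%) passed without cKO 3, 16 (0.111%) without control 2 and 1 in each other omission. The member and partner counts were above 0 only without cKO 3. *Epcam* turned to 0.0059 with library size alone and to 0.030 and 0.031 with limma on log2(TPM + 1) and log2(TPM + 0.1), and ran from −0.21 to 0.19 over the omissions, above 0 without control 1, cKO 1 or cKO 2. *Ctnnd1* ran from −0.29 to 0.016, above 0 without cKO 2. The log2 ratio of *Nectin4* to the epithelial markers ran from −0.30 to 0.084, above 0 without cKO 3. The other 11 ratios kept their direction in CPM and without each library. The causes were not tested. With 3 libraries per group, differences within the intervals given for *Cdh2*, *Cdh3*, *Epcam* and the catenins cannot be resolved.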

Other observations

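*Cdh5*, *Cdh15* and *Cdh19* belong to the list of other cadherins, *Sox10* to the neural and Schwann cell list and *Cldn7* to the Epcam partners. They are named here after their values were seen. *Cdh5*, the endothelial cadherin gene, was at 49.4, 57.7 and 34.3 TPM in control and 159, 89.6 and 43.2 TPM in cKO libraries, with a log2 fold change of 0.96 (SE 0.39, edgeR adjusted p = 0.189) and groups that overlapped. *Cdh15*, known from muscle precursors, had 2, 6 and 3 counts in control and 52, 12 and 17 counts in cKO libraries, with adjusted p-values of 0.0865 (edgeR), 0.0623 (edgeR, replicate block) and 0.0158 (DESeq2, past the criterion there). The skeletal muscle markers summed to 9.16 to 12.4 TPM in controls and 9.44 to 13.03 TPM in cKO libraries, and none of the 2 tested passed in edgeR, DESeq2 or the block fit, or reached 0.05 unadjusted in edgeR. *Cdh19*, known from Schwann cell precursors, had 1, 1 and 0 counts in control and 55, 12 and 5 counts in cKO libraries, and did not pass the filter on low counts. *Sox10*, a defining gene of the same cells, had 1 count in each control library and 92, 8 and 8 counts in cKO libraries, and did not pass the filter. The neural and Schwann cell list as a whole was lower in cKO, with sums of 194 to 378 TPM in control and 103 to 164 TPM in cKO libraries. Of its 4 tested genes, 1 had a log2 fold change above 0. For *Cdh15*, *Cdh19* and *Sox10* cKO 1 was the highest library. *Cldn7*, a claudin gene whose product binds EPCAM, had 32, 8 and 11 counts in control and 2, 4 and 5 counts in cKO libraries, and did not pass the filter either.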
